A study of Mus musculus with 4 samples.

Results

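Collagens are the main structural proteins of the extracellular matrix, and each collagen molecule is a triple helix wound from alpha chains that separate genes encode. The chain genes examined here are those whose symbol has the pattern Col, a number, the letter a and a number. They were found by matching the accession of every non-control probe on the arrays to a mouse gene symbol. The match gave 42 collagen chain genes with 70 probes, out of 18217 genes and 41174 probes. Known chain genes with no matching probe were Col6a3, Col12a1 and Col21a1, and they are not analysed here.

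The cells were mouse microvascular smooth muscle (mVSM) cells, which form the contractile wall of small arteries. All of them came from male C57BL6 mice of a Rap1a knockout model (Rap1a-/-), so both groups lack this small GTPase by genotype. The control cells had been transduced with an empty shuttle vector and were labelled with the red dye Cy5. The compared cells had been transduced with the RapCA shuttle vector, a name the labels do not spell out, and were labelled with the green dye Cy3. Cells met the virus overnight without serum at plating and were given 48 hours to recover at 0.5% serum; before that they had grown in 10% serum. The labels name no virus or promoter and give no age, no cell line name and no number of animals.

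Each of 4 arrays carried 1 control and 1 RapCA sample, called biological replicates in the labels without a statement that they came from separate cultures or animals. The p-values below therefore measure only the spread between these samples, which may be technical. A log2 ratio is the signal of the channel labelled RapCA over that of the channel labelled vector, so 1.00 is a 2-fold higher signal in the RapCA channel. No array had the dyes exchanged, so the effect of the vector and any effect of the dyes cannot be told apart. For Rap1a itself, the probe was lower in the RapCA channel: its ratio was -0.46, -1.02, -1.31 and -1.47 on replicates 1 to 4. The mean was -1.06 ± 0.44 (SD, n = 4, limma adjusted p = 0.00206). The related Rap1b was higher in the RapCA channel, at 1.55, 0.80, 0.52 and 0.32, a mean of 0.80 ± 0.54 (limma adjusted p = 0.0134). Whether the Rap1a probe lies in the deleted part of the gene is not known here. If the dye labels were exchanged in the record, every direction below would turn.

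Replicate 1 stood apart from the other arrays. Its ratios correlated with theirs at 0.69 to 0.78 across the probes tested, against 0.93 to 0.98 among replicates 2 to 4, and its vector channel had 51.3% of probes well above background, against 60.2% to 62.0% on the others. In the RapCA channel this share was 57.8% to 62.9%. No spot was saturated. Smooth muscle markers were present: 7 of 10 were tested, among them Acta2, Myh11 and Tagln, while Myocd, Des and Synpo2 were above background on no array.

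By class, the collagens fall into groups that build different structures. Fibrillar chains form the rope-like fibrils that carry tension. Network chains form sheets, of which type IV collagen in basement membranes around smooth muscle cells is the best known. Beaded filament chains (type VI) form microfibrils near cells, and FACIT chains attach to the surface of fibrils. Multiplexins are basement membrane proteins, type VII collagen forms anchoring fibrils under epithelia, and the transmembrane chains span the cell membrane.

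Promoter stretches of 6 chains are printed here because these chains span the range of the results that follow: Col8a1 and Col8a2 had high ratios, Col6a1 was the chain whose promoter held the letters of an AP-1 site, Col1a2 had the ratio that moved most under median centring, Col9a2 was near 0 and Col7a1 was lower. Each is the 120 bases before the RefSeq start of the gene on build GRCm38.p6, read 5′ to 3′ along the gene's strand, with motif letters in capitals. The capitals mark the GC box GGGCGG or its reverse complement in Col8a1 (chr16:57754738-57754857, minus strand), Col8a2 (chr4:126286674-126286793, plus strand), Col9a2 (chr4:121039446-121039565, plus strand) and Col7a1 (chr9:108953466-108953585, plus strand). In Col6a1 (chr10:76726045-76726164, minus strand) they mark TGANTCA, and in Col1a2 (chr6:4505498-4505617, plus strand) CCAAT.
Col8a1: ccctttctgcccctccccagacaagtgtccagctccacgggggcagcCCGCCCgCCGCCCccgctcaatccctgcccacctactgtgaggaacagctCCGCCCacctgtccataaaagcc
Col8a2: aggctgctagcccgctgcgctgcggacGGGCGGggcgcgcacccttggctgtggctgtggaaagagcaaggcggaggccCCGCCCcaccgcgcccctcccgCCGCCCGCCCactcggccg
Col6a1: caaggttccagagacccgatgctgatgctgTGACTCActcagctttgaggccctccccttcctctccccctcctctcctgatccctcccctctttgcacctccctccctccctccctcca
Col1a2: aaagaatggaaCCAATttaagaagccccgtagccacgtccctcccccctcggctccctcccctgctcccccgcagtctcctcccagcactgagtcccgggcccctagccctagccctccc
Col9a2: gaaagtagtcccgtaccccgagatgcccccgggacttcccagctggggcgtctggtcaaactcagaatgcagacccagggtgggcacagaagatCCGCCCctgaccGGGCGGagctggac
Col7a1: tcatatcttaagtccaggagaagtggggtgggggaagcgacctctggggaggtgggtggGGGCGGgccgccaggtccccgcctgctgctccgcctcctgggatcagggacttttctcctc

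Motifs were searched on both strands in windows of 300 bases, from 250 before to 50 after the start. RefSeq windows matched 34 of the 42 chain genes, 14 of them genes called higher by at least 2-fold. The GC box, a site that Sp1-type factors can bind, was found in 12 of these 14 and in 10 of the other 20 collagen windows, against 38.2% of all 27025 windows. The 2 of the 14 without it were Col3a1 and Col6a1. The other 20 windows mix tested chains with chains below the filter, so their counts do not compare chains by direction. Of the tested ones, Col1a2, Col11a2, Col4a6, Col6a4, Col9a2 and Col7a1 held the GC box, and Col4a4 and Col20a1 did not. Of those below the filter, only Col6a5, Col6a6, Col23a1 and Col25a1 held it. CCAAT was found in 7 of the 14 and 6 of the 20, against 41.1% of all windows. The remaining motifs were found in 3 or fewer of the 14: TATAAA in 1, against 15.7% of all windows, the TEAD letters GGAATG in 3, against 16.6%, the AP-1 letters TGANTCA in 1, against 8.97%, and the CArG box of serum response factor in 0, against 1.81%. In the other 20 collagen windows these were found in 4, 2, 0 and 1. Letters in a window are a description and do not show binding.

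Of the 42 collagen genes, 28 were tested, because a probe of theirs was called well above background in the same channel, either of them, on each of the 4 arrays. By limma with Benjamini-Hochberg adjustment over all 12396 genes tested, with the brightest probe standing for its gene, 20 were higher in the RapCA channel, 3 were lower and 5 were not called at adjusted p under 0.05. Among all genes tested, 29.3% were called higher, 25.4% lower and 54.7% in either direction. Col8a2, Col14a1 and Col26a1 passed the filter through the channel where they are brighter; with both channels required above background, 25 collagen genes were tested, 18 called higher and 2 lower. At least 2-fold higher were 17 of the 28 collagen genes, against 9.16% of all genes tested. The median ratio was 1.35 over the 28 collagen genes and 0.02 over all genes tested. Collagen medians by array were 1.54, 1.13, 1.22 and 1.38 on replicates 1 to 4. Without replicate 1, 20 collagen genes were called higher and 4 lower, with a median ratio of 1.24, while 37.3% of all genes tested were called higher.

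A large share of the array was called, and part of it depended on how brightness was normalized. With each array only centred on its median in place of the intensity-dependent loess curve, the median over all genes tested moved from 0.02 to -0.17 and the share of called genes that were higher moved from 53.6% to 38.2%. Under that centring 13.2% of all genes tested were called higher, and 15 of the 28 collagen genes, 13 of them by at least 2-fold. The collagen genes called lower became 5, where 34.5% of all genes tested were called in either direction. In bulk samples such as these, fewer cells of a type and less RNA per cell cannot be told apart.

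**Figure D1:**
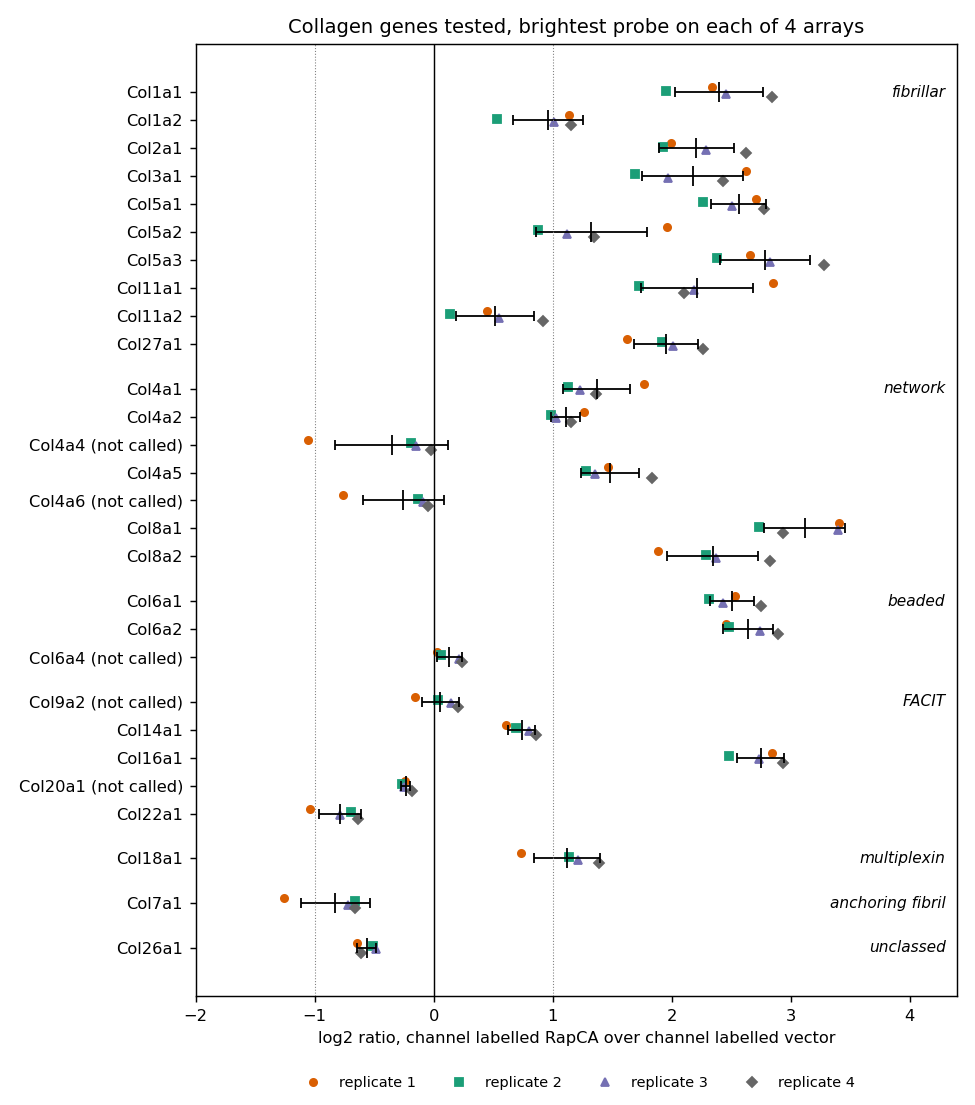
Log2 ratio of the RapCA channel over the vector channel for the brightest probe of each of the 28 collagen genes tested, grouped by class. Each symbol is 1 array, the tick and bar are the mean and SD of 4 arrays, and dotted lines mark 2-fold. With loess normalization all 10 fibrillar genes lie above 0 on every array, while Col22a1, Col7a1 and Col26a1 lie below 0 on every array.

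Fibrillar chains were higher on their brightest probes: all 10 tested genes were called higher, against 29.3% of all genes tested. Their median ratio was 2.19, their range 0.52 to 2.79, and 8 passed 2-fold. The second tested probes of Col2a1 and Col11a2 were not called. Under median centring 7 of the 10 were called higher and 0 lower. The eleventh fibrillar gene, Col24a1, was above background on no array. Type I collagen, the main collagen of vessel adventitia and scars, is built from Col1a1 and Col1a2. Col1a1 gave 2.34, 1.95, 2.46 and 2.84 on replicates 1 to 4, a mean of 2.40 ± 0.37 (SD, n = 4; 5.26-fold; limma adjusted p = 3.56e-05). All arrays were near or above 2 on this scale. Col1a2 gave 1.14, 0.53, 1.01 and 1.16, a mean of 0.96 ± 0.29 (n = 4; limma adjusted p = 0.000881), so replicate 2 was lowest and all arrays stayed above 0. Under median centring Col1a2 gave 0.47, -0.36, -0.05 and 0.33 with a mean of 0.10 (limma adjusted p = 0.692), and its call was lost.

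Type III collagen, a homotrimer of Col3a1 chains, is abundant in distensible tissues such as vessel walls. Col3a1 gave 2.62, 1.69, 1.97 and 2.43, a mean of 2.18 ± 0.43 (n = 4; limma adjusted p = 6.98e-05). Replicates 1 and 4 were the higher arrays, and the lowest was still well above 0.

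Type V collagen chains help to start fibrils and limit their width. Col5a1 gave 2.71, 2.26, 2.50 and 2.77, a mean of 2.56 ± 0.23 (n = 4; limma adjusted p = 1.43e-05). Col5a3, the least widely used of the type V chains, gave 2.66, 2.38, 2.83 and 3.28, a mean of 2.79 ± 0.38 (n = 4; limma adjusted p = 2.35e-05). Both brightest probes exceeded 2 on every array, but the second Col5a3 probe gave 1.50 ± 0.58, and with the mean of all tested probes Col5a3 was at 2.14 and Col5a1 at 2.45. Col5a2 gave 1.96, 0.87, 1.12 and 1.35, a mean of 1.33 ± 0.46 (n = 4; limma adjusted p = 0.000744), with replicate 1 above the rest. Under median centring its mean was 0.74 ± 0.75 (limma adjusted p = 0.118), and its call was lost.

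Type II and XI chains are best known from cartilage, where type XI collagen forms the core of type II fibrils. Col2a1 gave 1.99, 1.93, 2.28 and 2.62 on its brightest probe, a mean of 2.21 ± 0.32 (n = 4; limma adjusted p = 3.53e-05). Its second tested probe gave -0.49, 0.17, 0.18 and 0.45, a mean of 0.08 ± 0.40, and was not called (limma adjusted p = 0.715 over probes). The Col2a1 ratio thus depended on the probe. Col11a1 gave 2.85, 1.72, 2.19 and 2.10, a mean of 2.22 ± 0.47 (n = 4; limma adjusted p = 8.59e-05), and its second probe gave 1.97. Col11a2 gave 0.45, 0.14, 0.55 and 0.92, a mean of 0.52 ± 0.32 (n = 4; limma adjusted p = 0.0172), while its second probe was below 0 on every array, at -0.23, -0.04, -0.03 and -0.24, with a mean of -0.14 ± 0.11 (limma adjusted p = 0.296 over probes). The Col11a2 call was lost under median centring (adjusted p = 0.159), without replicate 3 (0.0689), without replicate 4 (0.0611) and with the mean of its probes (0.145). Of 8 cartilage and bone markers, 3 were tested: Sox9 had a ratio of 0.44 ± 0.20 (limma adjusted p = 0.0126), Bglap -1.60 ± 0.26 and Acan, a major cartilage proteoglycan, 0.02 ± 0.13. The defining cartilage markers Matn1 and Hapln1 were above background on no array. The summed signal of the list was 1548 to 2078 in the RapCA channel and 1662 to 1784 in the vector channel, and its part in the type II and XI ratios was not tested.

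Col27a1, a fibrillar chain of cartilage and some other tissues, gave 1.62, 1.91, 2.01 and 2.26, a mean of 1.95 ± 0.26 (n = 4; limma adjusted p = 3.89e-05). Replicate 1 was its lowest array, and a second probe gave 1.82 ± 0.35.

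In the network class, 5 of 7 tested genes were called higher, each past 2-fold, and 2 were not called. The median ratio was 1.37. Among all genes tested, 29.3% were called higher and 9.16% were higher by at least 2-fold. Under median centring 3 of the 7 were called higher and 2 lower, where 13.2% of all genes tested were called higher. Type VIII collagen is a short-chain network collagen made by endothelial and smooth muscle cells, known to be induced in injured vessels. Col8a1 had the highest measured ratio of the collagen genes under loess, at 3.40, 2.73, 3.39 and 2.93, a mean of 3.12 ± 0.34 (n = 4; 8.67-fold; limma adjusted p = 1.40e-05), and ranked 32 of the 12396 genes tested. Its arrays did not come near 0, and its second probe gave 2.86 ± 0.30.

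Col8a2 encodes the partner chain of type VIII. Its probe was well above background on all 4 arrays in the RapCA channel and on 0 arrays in the vector channel, so the size of its ratio is uncertain. With the vector signal floored at the lowest signal well above background, it was 5.06-fold higher in the RapCA channel. That floor hardly raised the vector signal, so this is no lower limit. The ratio was 2.27 with median centring and 2.18 without replicate 4. The measured ratios were 1.89, 2.29, 2.37 and 2.82, a mean of 2.34 ± 0.38 (n = 4, limma adjusted p = 4.08e-05). Replicate 4 was highest. The order of Col8a1 and Col8a2 cannot be read, since the vector signal of Col8a2 is not well above background. With the scanner ratio they were 3.17 and 4.88.

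Type IV collagen is the sheet of every basement membrane, and its common form is built from Col4a1 and Col4a2. Col4a1 gave 1.77, 1.12, 1.23 and 1.36, a mean of 1.37 ± 0.28 (n = 4; limma adjusted p = 0.000170). Col4a2, its head-to-head neighbour on chromosome 8, gave 1.26, 0.99, 1.03 and 1.16, a mean of 1.11 ± 0.12 (n = 4; limma adjusted p = 0.000141). In both genes replicate 1 was the highest array and replicate 2 the lowest. Second probes gave 1.46 ± 0.19 for Col4a1 and 1.25 ± 0.13 for Col4a2. Under median centring the means were 0.80 ± 0.57 (adjusted p = 0.0542) and 0.61 ± 0.43 (adjusted p = 0.0626), and both calls were lost.

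The other type IV chains form more specialised basement membranes, such as that of the kidney glomerulus. Col4a5 gave 1.46, 1.28, 1.35 and 1.83, a mean of 1.48 ± 0.24 (n = 4; limma adjusted p = 9.23e-05). Col4a6, its neighbour on chromosome X, gave -0.76, -0.13, -0.09 and -0.05, a mean of -0.26 ± 0.34 (n = 4; limma adjusted p = 0.170), and was not called. Col4a4 gave -1.05, -0.19, -0.15 and -0.02, a mean of -0.35 ± 0.47 (n = 4; limma adjusted p = 0.135), and was not called either. In both uncalled genes replicate 1 lay far below the rest, and under median centring both were called lower: Col4a4 at -0.56 ± 0.12 (adjusted p = 0.0156) and Col4a6 at -0.35 ± 0.06 (adjusted p = 0.0497). Col4a3 was above background on no array, and Col10a1, the type X chain of growth plate cartilage, on 1 array in the vector channel.

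Of the beaded filament class, Col6a1 and Col6a2 encode chains of type VI collagen, found around most mesenchymal cells. Col6a1 gave 2.54, 2.31, 2.43 and 2.75, a mean of 2.51 ± 0.19 (n = 4; limma adjusted p = 1.18e-05). Col6a2, next to it on chromosome 10, gave 2.45, 2.48, 2.74 and 2.89, a mean of 2.64 ± 0.21 (n = 4; 6.23-fold; limma adjusted p = 1.18e-05). The arrays of these genes lay within a narrow band, all above 2. Col6a4 gave 0.13 ± 0.11 (limma adjusted p = 0.290) with a second probe at 0.00, and was not called. Its neighbours on chromosome 9, Col6a5 and Col6a6, were above background on no array. Across the 3 tested beaded genes the ratios ran from 0.13 to 2.64.

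FACIT genes did not share a direction. Of 5 tested, 2 were called higher, 1 lower and 2 not called, with a median ratio of 0.06. Among all genes tested, 29.3% were called higher and 25.4% lower, so these counts are not read as a trait of the class. Col16a1, which bridges fibrils and microfibrils, gave 2.84, 2.48, 2.73 and 2.94, a mean of 2.75 ± 0.20 (n = 4; 6.71-fold; limma adjusted p = 1.03e-05), and was the only FACIT gene past 2-fold. Col14a1, a regulator of fibril growth, was above background on 0 arrays in the vector channel, so the size of its ratio is uncertain. Its measured ratios were 0.61, 0.69, 0.80 and 0.86, a mean of 0.74 ± 0.11 (n = 4, 1.67-fold, limma adjusted p = 0.000757). With median centring the mean was 0.69. The second Col14a1 probe was above background on no array in either channel, had a mean ratio of -0.02 and was not tested. Col22a1, a chain of tissue junctions, gave -1.04, -0.69, -0.79 and -0.63, a mean of -0.79 ± 0.18 (n = 4; limma adjusted p = 0.000865), below 0 on every array.

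Col9a2, a cartilage chain, gave 0.06 ± 0.16 (limma adjusted p = 0.672), and Col20a1 gave -0.24 ± 0.04 (limma adjusted p = 0.0668). Col20a1 was called lower without replicate 1 (limma adjusted p = 0.0230) and with an intensity trend and robust variances (0.0470). The same held with array weights (0.00223) and without the filter on dim probes (0.0177). In these settings 71.5%, 54.2%, 77.5% and 38.6% of all genes were called in either direction, against 54.7% in the main setting. Col9a1 and Col19a1 were above background on no array, and Col9a3 on 3 arrays in each channel.

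Among the remaining classes, Col18a1, the multiplexin whose C-terminal fragment is endostatin, gave 0.73, 1.14, 1.21 and 1.39, a mean of 1.12 ± 0.28 (n = 4; limma adjusted p = 0.000390), with replicate 1 lowest. Its second probe gave the same mean of 1.12. Col15a1, the other multiplexin, was above background on 2 arrays in the RapCA channel and none in the vector channel. Col7a1 was lower in the RapCA channel, at -1.26, -0.66, -0.72 and -0.67, a mean of -0.83 ± 0.29 (n = 4; limma adjusted p = 0.00170). Every array was below 0, and replicate 1 was lowest. Col26a1, placed in no class here, gave -0.65, -0.51, -0.48 and -0.61, a mean of -0.56 ± 0.08 (n = 4; limma adjusted p = 0.00227). It was well above background on 4 arrays in the vector channel and on 1 array in the RapCA channel, so the size of its ratio is uncertain: it was -0.92 with the smaller offset and -1.65 with the scanner ratio, and it dropped out of the filter that asks for both channels.

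No transmembrane chain could be tested. Col13a1 was above background on no array, Col17a1, a hemidesmosome protein, on at most 2, Col23a1 on at most 2 and Col25a1 on 1. Col28a1, also without a class, reached background on 1 array. Of the 27 collagen probes below the filter, 18 were above background on no array in either channel. Without the filter, 38.6% of all genes were called in either direction, and 4 of these 14, at small ratios: Col28a1 0.36, Col15a1 0.25, Col17a1 0.22 and Col9a3 -0.19 (limma adjusted p from 0.00408 to 0.0398).

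Chains that assemble into 1 molecule were compared by the ratios of their brightest probes. For type I, Col1a1 exceeded Col1a2 by 1.20, 1.42, 1.45 and 1.68 on replicates 1 to 4, a mean difference of 1.44 ± 0.20 (n = 4). The difference lay between 1.29 (mean of all tested probes) and 1.52 under the alternatives tried. For type V, Col5a1 exceeded Col5a2 by 1.24 ± 0.32 and Col5a3 exceeded Col5a2 by 1.46 ± 0.54, positive on 4 of 4 arrays in each case, while Col5a1 and Col5a3 differed by -0.22 ± 0.24. The type V differences depended on the Col5a3 probe: with the mean of all tested probes Col5a3 exceeded Col5a2 by 0.82, and Col5a1 minus Col5a3 was 0.30. Col11a1 exceeded Col11a2 by 1.70 ± 0.51 on 4 of 4 arrays, with the probe disagreement of Col11a2 given above. Chains with closer ratios were Col4a1 and Col4a2, which differed by 0.26 ± 0.17, and Col6a1 and Col6a2, which differed by -0.13 ± 0.16. Col11a1 and Col2a1 differed by 0.01 ± 0.59 on their brightest probes and by 0.95 with the mean of all tested probes. Col4a5 exceeded Col4a6 by 1.74 ± 0.39 and Col4a4 lay below Col4a5 by a difference of -1.83 ± 0.48, in the same direction on all 4 arrays. Probes of 1 gene differed by as much as 2.13 (Col2a1) and 1.29 (Col5a3), so a gap between single probes of a pair of genes does not by itself show that the genes changed unequally. No p-value is given for these differences.

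Of the 43 collagen probes tested, 35 were called over all 23511 probes tested, where 49.6% were called in either direction. More than 1 tested probe was available for 14 genes. In 12 of them all probes had the same call, and the exceptions were Col2a1 and Col11a2. Probe means differed by less than 0.5 in 9 of the 14. The 3 probes of Col1a1 gave 2.40, 2.37 and 1.96, whereas Col5a3 gave 2.79 and 1.50, Col16a1 2.75 and 1.94, and Col3a1 2.18 and 1.64. In 11 of the 14 genes the brightest probe had the larger absolute ratio. The brightest Col1a1 and Col2a1 probes were each printed as 10 spots: within an array, the SD of the log2 ratio over spots was 0.02 to 0.04 for Col1a1 and 0.05 to 0.12 for Col2a1, smaller than the SD between arrays.

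**Figure D2:**
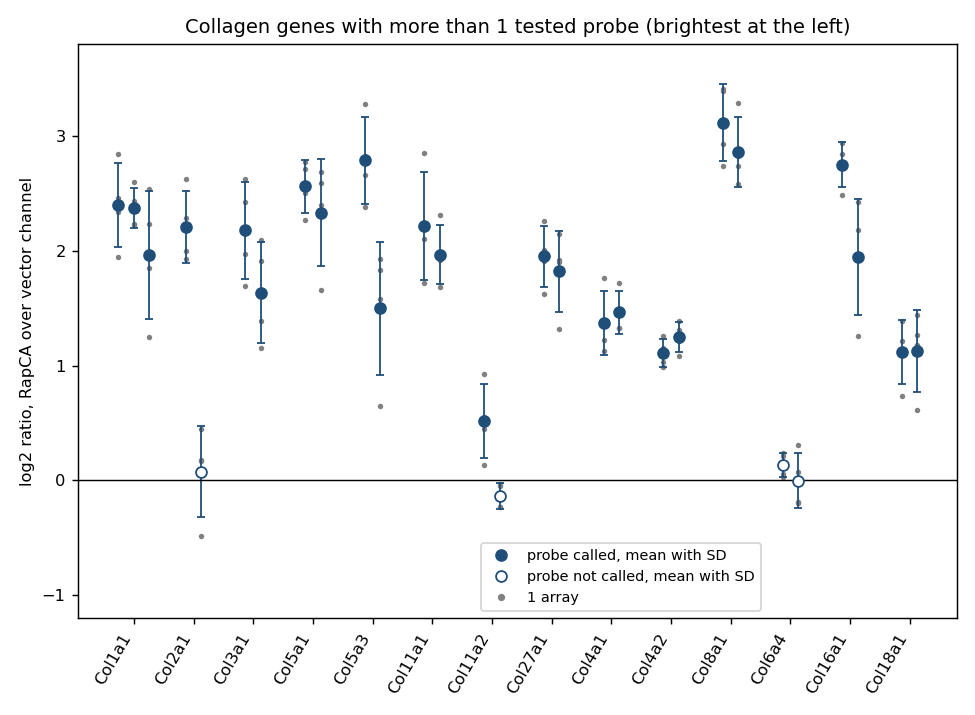
Log2 ratio of every tested probe of the 14 collagen genes with more than 1, brightest probe at the left within a gene; large circles with bars are the mean and SD of 4 arrays, small points are arrays, and open circles are probes not called. The second probes of Col2a1 and Col11a2 lie near 0, at 0.08 and -0.14, while the brightest probes of these genes are called higher.

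Bright and dim collagen probes differed. Of the 28 genes, 13 had a mean log2 signal of 12 or more over both channels, and all 13 were called higher; of the 15 below 12, 7 were called higher and 3 lower. Among all genes tested the shares called higher were 31.8% at 12 or more and 28.4% below 12. The loess curve raised bright collagen ratios over median centring, by 0.86 for Col1a2, 0.79 for Col1a1 and 0.72 for Col3a1, and by 0.04 for Col26a1. For Col1a2, the highest raw signals were 246342 in the RapCA channel and 240169 in the vector channel, at 31.6% and 30.9% of the saturation value. For Col1a1 they were 257530 and 126643. The 15 genes called higher under median centring were also called higher under every other setting that tested them; Col8a2 and Col14a1 drop out of the filter on both channels.

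**Figure D3:**
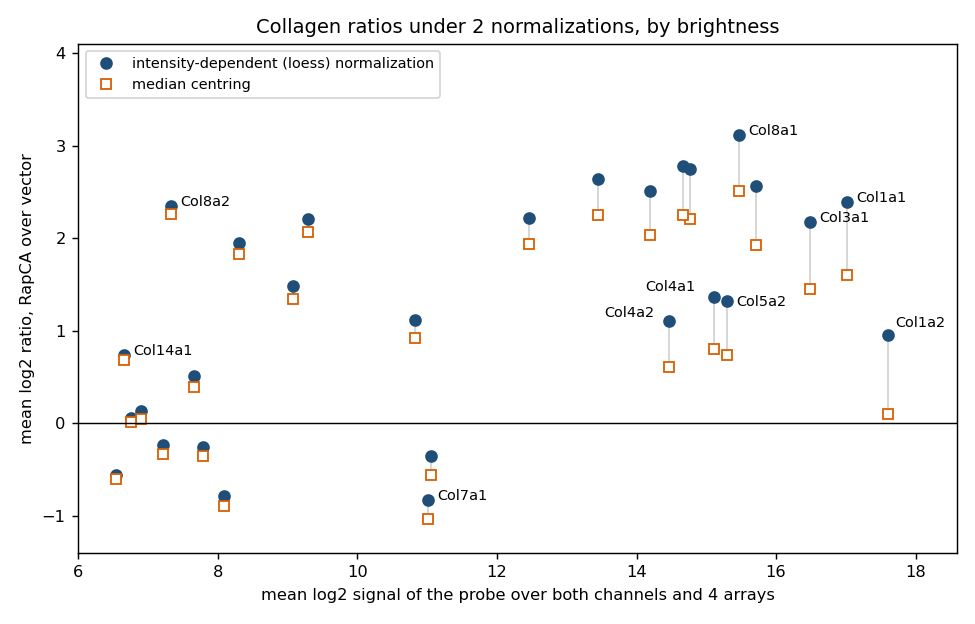
Mean log2 ratio of the 28 collagen genes against the mean log2 signal of the probe, with the loess-normalized ratio (filled circle) joined to the median-centred ratio (open square). The gap is widest for bright probes, from 0.04 for Col26a1 to 0.86 for Col1a2, whose centred ratio is 0.10.

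Replicate 1 ordered differently by brightness. Among the 17 collagen probes called higher with a mean log2 signal of 12 or more, replicate 1 was the highest array for 7 and the lowest for 2. Among the 15 below 12 it was the highest for 0 and the lowest for 12. Over all probes called higher, replicate 1 was highest for 36.7% of bright and 29.5% of dim probes. It was lowest for 48.3% of bright and 48.8% of dim probes. The part of this array in the dim collagen ratios was not tested further than by leaving it out.

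Genes whose proteins handle collagen were examined as 5 lists. Among all genes tested, 29.3% were called higher and 25.4% lower, and under median centring 13.2% were called higher. For folding and secretion, 15 of 23 tested genes were called higher, 0 lower and 8 not called, with a median ratio of 0.71; under median centring 10 were higher and 1 lower. Those with the smallest p were Fkbp14, a prolyl isomerase of the endoplasmic reticulum, at 2.70 ± 0.28, Creb3l1, a transcription factor for collagen and secretion genes, at 1.90 ± 0.31, and P3h3, a prolyl 3-hydroxylase family member, at 1.83 ± 0.36. The collagen chaperone Serpinh1 (HSP47) was called higher at 0.99 ± 0.32, while the prolyl 4-hydroxylase subunit P4hb had a ratio of -0.02 ± 0.18 and Ppib, cyclophilin B, 0.00 ± 0.12. The last 3 were named after their values were seen. P4ha3 and Tmem38b, both called higher, were well above background on 1 and 0 arrays in the vector channel and passed the filter through the RapCA channel.

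For procollagen processing and crosslinking, 5 of 9 tested genes were called higher and 2 lower, against 29.3% and 25.4% of all genes tested. The median ratio of the list was 1.23. The smallest p belonged to Loxl2, a lysyl oxidase, at 1.88 ± 0.19, Adamts2, the procollagen N-proteinase, at 2.12 ± 0.34, and Loxl1 at 1.55 ± 0.26. The lower ones were Pcolce2, an enhancer of C-propeptide removal, at -1.11 ± 0.09, and Loxl4 at -0.39 ± 0.18. No probe matched Lox, Tll1 or Tll2.

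Among collagen receptors, 4 of 6 tested genes were called higher and 0 lower, against 29.3% and 25.4% of all genes tested. The median ratio of the list was 0.92. Itga11, the integrin chain that pairs with beta 1 to bind fibrillar collagen, had 3.90 ± 0.64, the endocytic receptor Mrc2 2.21 ± 0.45 and Itga1 0.90 ± 0.31. Itga1 was well above background on 3 arrays in the vector channel, so it passed the filter through the RapCA channel. Proteins that sit on or along fibrils were called higher in 17 of 17 tested genes, with a median ratio of 2.24; under median centring 12 were called higher and 0 lower. The leading members were the small leucine-rich proteoglycans Dcn, at 3.88 ± 0.19, and Aspn, at 3.73 ± 0.29, and Dpt, dermatopontin, at 2.76 ± 0.11. Lum was above background on no array.

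Of the collagen-degrading proteases 5 of 10 were tested, with a median ratio of 0.96. Called higher were 4, among them Fap at 1.20 ± 0.15, Mmp2 at 1.05 ± 0.23 and Mmp14 at 0.96 ± 0.17. Under median centring 2 were called higher. Among all genes tested the shares called higher were 29.3% with loess and 13.2% with median centring, and 25.4% were called lower with loess. Fap was well above background on 3 arrays in the vector channel, so it passed the filter through the RapCA channel. Mmp13, the main mouse interstitial collagenase, was called lower, with a measured ratio of -2.56 ± 0.85. It was well above background on 1 array in the RapCA channel, so the size is uncertain, and with both channels required above background it was not tested and no protease was called lower.

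**Figure D4:**
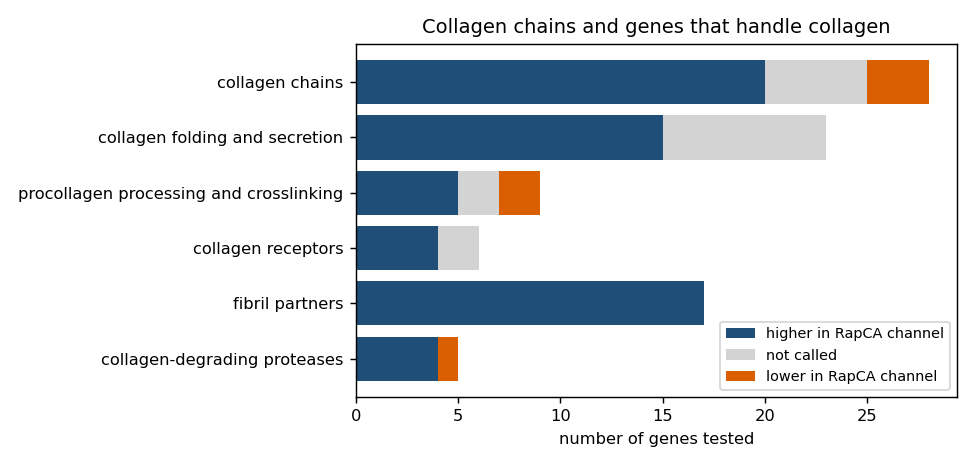
Number of tested genes called higher (blue), not called (grey) and called lower (orange) in the RapCA channel, for the 28 collagen chain genes and 5 lists of genes that handle collagen. All 17 tested fibril partners were called higher, and the collagen chains, the processing and crosslinking genes and the proteases include genes of both directions.

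Markers of cell types that could be in such a culture moved alongside these genes. Among all genes tested, 29.3% were called higher and 25.4% lower, and under median centring 13.2% were called higher. Smooth muscle markers were called higher in 4 of 7 tested genes and lower in 0 (3 and 1 under median centring), and their summed signal was 310076 to 342307 in the RapCA channel and 145390 to 196211 in the vector channel. Of 11 fibroblast markers, 10 were tested: 6 were called higher, 1 (Ly6a) lower and 3 not called, among these Pdgfra, at 0.17 ± 0.64, and Thy1, at 0.06 ± 0.22. Their summed signal was 143271 to 176213 in the RapCA channel and 117249 to 137643 in the vector channel, and Dcn and Dpt also stand among the fibril partners. Pericyte markers were called higher in 3 of 4 tested genes (Cspg4, Pdgfrb and Notch3) and lower in 1, with summed signals of 26451 to 32700 and 9543 to 12658, while Rgs5, Abcc9, Higd1b and Vtn were above background on no array. With both channels required above background, 0 pericyte markers were called lower. The part of the smooth muscle, fibroblast and pericyte markers in the collagen ratios was not tested.

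Markers of other cell types were mixed. Endothelial Pecam1, Cdh5, Tie1, Emcn and Erg were above background on no array, and of 4 tested endothelial genes 1 was called higher and 2 lower. Leukocyte markers gave 1 higher of 4 tested, Schwann and glial markers 2 higher of 3, epithelial markers 2 lower of 4 and adipocyte markers 2 lower of 2. The shares over all genes tested were 29.3% higher and 25.4% lower. With both channels required above background, 0 endothelial and 0 leukocyte markers were called higher and 1 epithelial marker was called lower.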

How the data were processed

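The authors deposited scanner output of 4 Agilent arrays with 2 colours each, made with Feature Extraction 10.7.3.1 per the file headers (10.9 per the submitters' processing notes). The deposited median spot signals are linear intensities in Cy3 and Cy5, and the authors' own ratios and series table are log10 values of background-subtracted, dye-normalized signals per the file headers. Over the 40929 probes printed once, the largest gap between the series table and the scanner's ratio was 5e-05, so scale and direction are those of the scanner ratio; each column's median is 0.

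Here the intensities were corrected with normexp (offset 50) and loess-normalized within each array in limma 3.58.1 (R 4.3.3), with control spots at weight 0, outlier-flagged spots left out and spots of a probe averaged. A probe was tested if the same channel (either of them) was well above background on each of the 4 arrays, and if 3 or more arrays gave a ratio. The floored value given for Col8a2 uses per-channel levels after loess and Aquantile scaling. It is the mean in the bright channel over, per array, the higher of the dim probe and the lowest signal among probes well above background. The floor hardly raised the dim signal, so the value is no lower limit, and it is open to dye bias. limma (lmFit, eBayes) tested the log2 ratios against 0, and its adjusted p is given throughout. Accessions were matched to symbols in RefSeq (GRCm38.p6), which named 64.8% of probes; the array's probe sequences are not analysed here. The precision is limited by the number of arrays.

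The members, gene lists and alternatives were chosen with earlier results of these data known. Per-array values are given for chains at least 2-fold higher, with disagreeing probes or with 1 channel above background on no array. By choice they are also given for the other called chains. For each list, its counts and the 3 genes with the smallest p are given. Alternatives were median centring, the scanner ratio and series table, a smaller offset of 16, no background correction, no filter or a filter on both channels, outlier spots kept, a trended robust fit, array weights, unpaired channels, each replicate left out and the mean of a gene's probes. On simulated data for the RapCA over vector comparison (23511 probes, 200 of them changed), changes of 0.5, 1, 2 and 4 on the log2 scale were recovered in 4%, 82%, 100% and 100% of probes, with 8 false calls.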

Additional observations from a re-analysis of the deposited data

Results flagged for a closer look

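Collagen probes in which 1 of 4 arrays lay far from the rest, by Dixon's gap test at the 95% level, were 3 of the 43 tested, where chance flags about 1 in 20. In all 3 the array was replicate 1: Col4a4 had a log2 ratio of -1.05 there and -0.19 to -0.02 on the others, Col4a6 had -0.76 against -0.13 to -0.05, and Col7a1 had -1.26 against -0.72 to -0.66. Under median centring the replicate 1 values were -0.61 for Col4a4, -0.28 for Col4a6 and -0.80 for Col7a1, and the others ran from -0.69 to -0.41, from -0.43 to -0.33 and from -1.26 to -1.02.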

How the results depend on the processing

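Of 445 comparisons of a collagen gene's ratio with its value under another setting, 429 kept direction and side of the threshold, and no ratio reversed. Direction could not change under the filter changes, the trended robust fit or unpaired channels, where the ratios were those of the main setting. With outlier spots kept, only the Col2a1 ratio moved. The scanner ratio and series table hold nearly the same values and are both counted. The count of collagen genes called higher ran from 15 with median centring to 23 without the filter on dim probes, and 15 were called higher under every setting that tested them. Collagen genes called lower became 5 with median centring, 5 with array weights and 5 without the filter. The median collagen ratio moved to 0.86 with median centring, to 0.30 without the filter (42 genes, the added ones dim), and to 1.55 with the scanner ratio and 1.55 with the series table. All genes called fell to 4272 with median centring. With array weights (0.148, 2.76, 3.76 and 0.652 on replicates 1 to 4) 77.5% of all genes tested were called in either direction. Col4a4, Col6a4 and Col20a1 were then also called, at -0.17, 0.15 and -0.25 (limma adjusted p = 0.0422, 0.0489 and 0.00223). Leaving out each replicate in turn gave 19 to 20 collagen genes higher, 3 to 4 lower, 34 to 37 probes called, a median ratio of 1.24 to 1.46 and 4982 to 8858 genes called in all. Col8a1 minus Col8a2 reversed to -1.70 with the scanner ratio and -1.70 with the series table, and was 0.04 with the smaller offset; the Col8a2 vector signal is not well above background. With the channels of an array not paired (no replicate block), 20 collagen genes were higher, 3 lower and 35 probes called. The cause of these moves was not tested. Chains with a probe not well above background in 1 channel moved by over 1 between loess and the scanner ratio, under which Col8a2 was 4.88, Col14a1 2.84 and Col26a1 -1.65. The self-test recovered few changes of 0.5. It changed 200 of 23511 probes, whereas 49.6% of probes were called in the data, so its recovery does not carry over to them.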
